A study of Mus musculus with 2 samples.

Results

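The clustered histone genes of mouse chromosome 13 were examined in a Hi-C map of HPC5 cells. They were taken as the protein-coding genes of the RefSeq annotation between 21.5 and 24 Mb (mm10) whose symbols begin with H1f, H2ac, H2bc, H3c or H4c. There were 53 of them, out of 21521 protein-coding genes on autosomes and the X chromosome. The region was chosen by measured values, namely the loops found in it, among them the bin with the most loops of both lists. Hi-C counts ligation products between pieces of DNA that lie close together in the nucleus, and a loop in these lists joins 2 anchors that the authors called as in contact, each a bin 5, 10 or 25 kb wide. HPC5 is a haematopoietic progenitor cell line derived from mouse bone marrow, and both samples carried wild-type Etv6 (Etv6+/+) and differed in no stated treatment. For each, cells were fixed with 2% formaldehyde for 10 min and cut with the enzymes of the Arima kit. The 2 samples form 1 group with replicate numbers 1 and 2, and whether these were separate cultures is not stated, so their differences may be technical. With no second condition, the data describe where the loops of these genes lie and how far the replicates share them. The lists hold no expression values, so the identity of the cells was not checked against marker genes.

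The core histones H2A, H2B, H3 and H4 form the protein spool of the nucleosome, and the linker histone H1 binds the DNA where it enters and leaves. Most genes of these clusters are copied into RNA during S phase, when new DNA has to be packed, and their messenger RNAs end in a stem-loop in place of a poly(A) tail. Their transcription and RNA processing are known to take place at a nuclear compartment called the histone locus body, organised around the protein NPAT. The genes are short, mostly without introns, and stand close together, often as H2A and H2B neighbours read in opposite directions from a shared stretch of DNA.

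The genes fell into 3 runs when a gap of over 200 kb was taken to divide them. Subcluster 1 held 17 genes in 118 kb (21715711 to 21833475), subcluster 2 held 5 genes in 8.54 kb (22035122 to 22043658), and subcluster 3 held 31 genes in 404 kb (23531044 to 23934913). The gap between the first and the second run was 202 kb, just past the dividing length. Between the second and the third lay 1490 kb, filled largely by 36 Vmn1r genes, which encode vomeronasal pheromone receptors, and by tRNA genes near its right end. The widest gap inside a run, 169 kb, separated H1f1 from H2bc1 and H2ac1, which encode testis histones. By class there were 6 H1, 13 H2A, 14 H2B, 9 H3 and 11 H4 genes.

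The bin that took part in the most loops, 22025001 to 22049999, here called the hub bin, held all 5 genes of subcluster 2. Those are the divergent pair H2ac12 and H2bc12, the divergent pair H2ac11 and H2bc11, and H4c9 between them. The stretches before their starts are shown because every loop of a subcluster 2 gene ended in this bin. Sequences are from RefSeq (GRCm38.p6), written 5′ to 3′, and for each pair the whole DNA between the 2 starts is given, 177 and 248 bases long. Other genes are given as the 120 bases before the start. Capitals mark 5 motifs on either strand, which are the TATA box, the CCAAT box, the octamer bound by POU factors, the core of an H4 gene element, and the AC box of H1 genes. The letters searched for the TATA box were TATAAA. For the CCAAT box they were CCAAT. The octamer was ATTTGCAT. For the H4 element core they were GGTCCG. The AC box was searched as AAACACA. No motif contains another.
H2ac12 to H2bc12 (chr13:22035644-22035820, plus strand): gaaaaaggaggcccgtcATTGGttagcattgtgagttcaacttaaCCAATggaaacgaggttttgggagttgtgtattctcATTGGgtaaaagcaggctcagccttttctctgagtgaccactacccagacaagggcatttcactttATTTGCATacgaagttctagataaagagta
H2ac11 to H2bc11 (chr13:22042950-22043197, plus strand): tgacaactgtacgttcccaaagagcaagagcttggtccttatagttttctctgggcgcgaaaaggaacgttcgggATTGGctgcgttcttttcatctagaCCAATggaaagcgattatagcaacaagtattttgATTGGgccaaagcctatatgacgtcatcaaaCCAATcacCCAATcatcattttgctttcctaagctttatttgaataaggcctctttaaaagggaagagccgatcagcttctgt
H4c9 (chr13:22041363-22041482, minus strand): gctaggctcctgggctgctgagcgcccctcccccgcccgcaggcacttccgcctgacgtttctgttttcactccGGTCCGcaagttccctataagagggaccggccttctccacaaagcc

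The following lines show genes of the bins that were joined to this one, or that took part in the loop found in both replicates, with 1 or 2 genes for a bin. H4c18 lay in the bin at 21825001 to 21849999, H2bc14 and H3c10 in that at 21700001 to 21724999, H2bc9 in that at 23525001 to 23549999, and H3c2 and H1f1 in that at 23750001 to 23774999. H1f4 lay in a replicate 1 bin at 23620001 to 23629999.
H4c18 (chr13:21832198-21832317, minus strand): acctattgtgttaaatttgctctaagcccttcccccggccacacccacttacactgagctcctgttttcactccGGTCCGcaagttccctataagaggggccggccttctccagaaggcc
H2bc14 (chr13:21721924-21722043, plus strand): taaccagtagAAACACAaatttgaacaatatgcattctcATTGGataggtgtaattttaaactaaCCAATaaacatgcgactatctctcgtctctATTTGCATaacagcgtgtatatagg
H3c10 (chr13:21717508-21717627, plus strand): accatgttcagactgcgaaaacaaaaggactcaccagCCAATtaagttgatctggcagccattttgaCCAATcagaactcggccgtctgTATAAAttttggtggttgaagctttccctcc
H2bc9 (chr13:23543445-23543564, minus strand): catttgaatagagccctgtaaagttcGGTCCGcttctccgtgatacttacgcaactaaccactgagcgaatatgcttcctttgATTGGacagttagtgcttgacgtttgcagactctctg
H3c2 (chr13:23752225-23752344, plus strand): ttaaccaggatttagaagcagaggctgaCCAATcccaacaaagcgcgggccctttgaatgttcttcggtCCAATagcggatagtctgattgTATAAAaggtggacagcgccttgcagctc
H1f1 (chr13:23763548-23763667, plus strand): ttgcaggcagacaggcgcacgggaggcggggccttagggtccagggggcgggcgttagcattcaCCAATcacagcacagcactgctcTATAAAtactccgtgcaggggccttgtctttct
H1f4 (chr13:23622559-23622678, minus strand): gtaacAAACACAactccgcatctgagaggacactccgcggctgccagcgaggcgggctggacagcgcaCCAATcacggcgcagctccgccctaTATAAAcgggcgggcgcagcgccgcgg

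The promoters of H4c9 and H4c18 shared 47 of the last 50 bases before the start, and 72 of the 120 bases shown. H4c17, which had no loop in these lists, also shared 47 of 50 with H4c9 when the stretch was slid along the other promoter. H4c17 is a near-identical copy of H4c18 (298 of 299 promoter positions), and how reads that fit both were placed is not given. Whether the likeness goes with joined bins was not tested. Over the 55 pairs of H4 promoters the median by that measure was 23, and 4 pairs reached 47 or more. The octamer stood 30 bases before the start of H2bc12 and 25 before that of H2bc14. It was not among the letters between H2ac11 and H2bc11.

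In the lists called with the medium setting, replicate 1 had 4 loops with an anchor in the window and replicate 2 had 18, out of 1276 and 5729 in all. That is 0.313% and 0.314% of each list, and the window makes up 0.0973% of the annotated chromosome length. In the high-setting lists the shares were further apart, with 0.99% in replicate 1 (2 of 202 loops) and 0.179% in replicate 2 (6 of 3354). The sequencing depth behind the lists is unknown. Of the 22 loops, 12 had an end of a histone gene at an anchor, 2 in replicate 1 and 10 in replicate 2. These loops, and above all the 6 at the bin of subcluster 2, were part of how the region was chosen, so their number is given as a description.

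The 5 genes of subcluster 2 had 6 loops, 5 in replicate 2 and 1 in replicate 1. In replicate 2 the bin was joined leftward to subcluster 1 over 200 kb (n = 38), at the bin with H4c18 and H2ac24, and over 325 kb (n = 39), at the bin with H2bc13, H2ac13, H3c10 and H2bc14. The number n is a whole number that the authors deposited with each loop and that the files do not define. Rightward it was joined over 1400 kb (n = 54) to 23425001 to 23449999, where no protein-coding gene ended but 12 tRNA genes lay. Over 1500 kb (n = 45) it reached the start of subcluster 3, at H4c8, H2ac10, H3c8, H2bc9 and H3c7. Over 1725 kb (n = 28) it reached H2ac4, H3c2, H4c2, H4c1, H3c1 and H1f1, further along the same run. The replicate 1 loop spanned 1475 kb (n = 17) and ended at 23500001 to 23524999, the bin directly before that of H4c8, with 11 tRNA genes and no histone gene.

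Loops of this length were few in both lists. Only 125 replicate 2 loops and 12 replicate 1 loops spanned 1000 kb or more, and 5 and 1 of these had an anchor in the window. All 6 had a histone gene end at an anchor, and the 1500 kb loop and the hub bin's 1725 kb loop had histone gene ends at both. The replicate 2 loops of 1400 and 1500 kb had tRNA genes at both anchors. So did the 1725 kb loop that ended at 23425001 to 23449999 and the replicate 1 loop. Besides the hub bin there was 1 other bin in the replicate 2 list with 3 or more loops that long, out of 233 bins at the ends of such loops. Among the 35 loops of replicate 2 on 25 kb anchors that spanned 1400 kb or more, 1 had a higher n than the 1400 kb loop of the hub. Among the 27 spanning 1500 kb or more, 1 had a higher n than the 1500 kb loop. Among the 11 spanning 1725 kb or more, 2 had a higher n than the hub's 1725 kb loop. Of the 107 loops on 25 kb anchors that spanned 1000 kb or more, whose median n was 30.0, the hub's 3 ranked 6, 14 and 65 by n. By qBL, the second deposited and undefined value, they had the fifth, the fourth and the third lowest values of the 107 (2.7e-14, 2.64e-15 and 8.88e-17), against a median of 1.48e-05. In replicate 1 the hub's long loop ranked 8 of 11 both by n and by qBL (0.000242, against a median of 8.57e-05 for the 11), on the weaker side of both. Only 2 replicate 1 loops on 25 kb anchors, itself included, were as long, and 1 had a higher n.

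**Figure D1:**
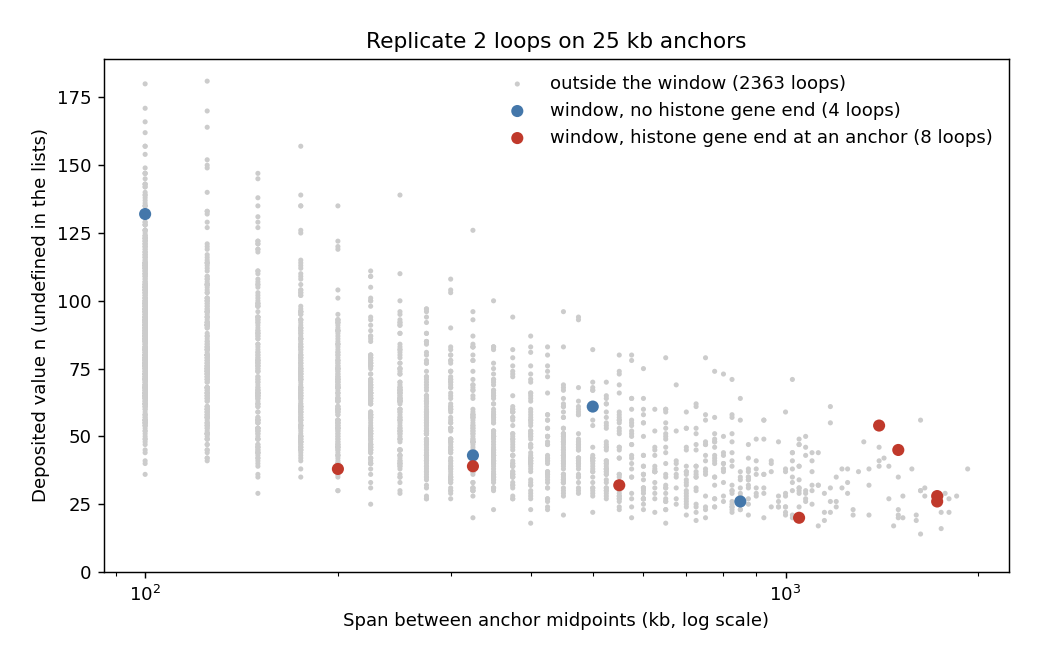
Deposited value n against the span in kb (log scale) for the 2375 replicate 2 loops on 25 kb anchors, with the 8 loops that had a histone gene end at an anchor in red and the 4 other loops of the window in blue. The red points at 1400 and 1500 kb (n = 54 and 45) lie near the top of the points of their length, while those at 200, 325 and 1050 kb (n = 38, 39 and 20) lie low.

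The first bin of subcluster 1, at 21700001 to 21724999, was the second most connected of the window's 26 anchors, with 3 loops in replicate 2 and 0 in replicate 1. It held the core histone genes H2bc13, H2ac13, H3c10 and H2bc14, the olfactory receptor gene Olfr1359 and 2 tRNA genes. Besides the 325 kb loop to subcluster 2, it had a loop of 1725 kb (n = 26) to the tRNA bin at 23425001 to 23449999. The third loop, of 550 kb (n = 32), led left to 21150001 to 21174999, outside the window, where 9 tRNA genes lay and no protein-coding gene ended. The bins at 21700001, 22025001 and 23425001 were thus joined to each other on all 3 sides. The replicate 2 list held 22 such closed triples of bins, of which 3 had 2 sides of 1000 kb or more, and the replicate 1 list held 0.

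In all, 4 loops joined histone genes of different subclusters, all in replicate 2 and all ending at the subcluster 2 bin. Those of 200, 325 and 1500 kb also had tRNA genes at both anchors, and that of 1725 kb had them at the subcluster 2 bin alone. Which genes, if any, the contacts belong to was not tested. Under the high setting there were 0. With gene ends up to 10 kb from an anchor counted there were 5, the added loop being the replicate 1 hub loop, whose right bin lies just before H4c8. The 202 kb gap between subclusters 1 and 2 decides 2 of the 4: with runs divided only at gaps over 500 kb, 2 remained. No loop joined histone genes of subcluster 1 directly to histone genes of subcluster 3 in either list.

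Within subcluster 3 the loops at histone genes were short. In replicate 1 a loop of 60 kb (n = 22) joined 23620001 to 23629999, at H1f4 and an end of H2bc6, to 23680001 to 23689999, at H2ac6 and H2bc4. In replicate 2 a loop of 50 kb (n = 44) joined the same right bin to 23630001 to 23639999, the next bin, where no gene ended. Their midpoints lay within 20 kb of each other on both sides, so this was the only loop with a histone gene end that counted as found in both replicates, and the left gene ends are in the replicate 1 anchor alone. A further replicate 2 loop of 35 kb (n = 20) had its left anchor at H1f6, which encodes a testis linker histone, and H4c3. Its right anchor, 23730001 to 23734999, held no gene end, and Hfe, a regulator of iron uptake, lay between the anchors. The bin of H1f1 at 23750001 to 23774999 also had a loop of 1050 kb (n = 20) to 24800001 to 24824999, outside the window, which held ends of BC005537 and of Acot13, a thioesterase gene.

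Of the 53 histone genes 28 had an end in an anchor of the medium lists of both replicates together, which is 52.8%, against 22.5% of all protein-coding genes. In replicate 2 alone the count was 26 (19.8% of all) and in replicate 1 alone it was 9 (6.67% of all). The same 7 genes were at anchors in each replicate, namely the 5 of subcluster 2, H2ac6 and H2bc4. Members are not independent here, since the 28 genes share 8 anchors. Under the high setting 6 genes were at an anchor (9.53% of all protein-coding genes), and at anchors of loops found in both replicates there were 4, H1f4, H2bc6, H2ac6 and H2bc4 (5.83% of all). These counts follow from loops that the choice of the region used, so nothing was tested.

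The 5 classes were at anchors in like shares. The linker histone genes H1f1, H1f4 and H1f6 were, and H1f2, H1f3 and H1f5 were not (3 of 6). There were 7 of 13 H2A genes, 7 of 14 H2B genes, 5 of 9 H3 genes and 6 of 11 H4 genes. By subcluster the shares were further apart, and no difference was tested. All 5 genes of subcluster 2 lay in the hub bin, which the choice of the region used, so their count was fixed by that choice. At an anchor were 17 of 31 genes of subcluster 3 and 6 of 17 of subcluster 1. A pair of stretches held no anchored gene in either list, from H4c11 to H4c17 in subcluster 1 (11 genes) and from H4c6 to H4c4 in subcluster 3 (9 genes). The remaining genes without a loop were H1f2, H3c3 and H2bc3, next to the bin of H1f1, and the testis genes H2bc1 and H2ac1. With gene ends up to 5 or 10 kb from an anchor counted, the number at an anchor was 32 or 33.

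**Figure D2:**
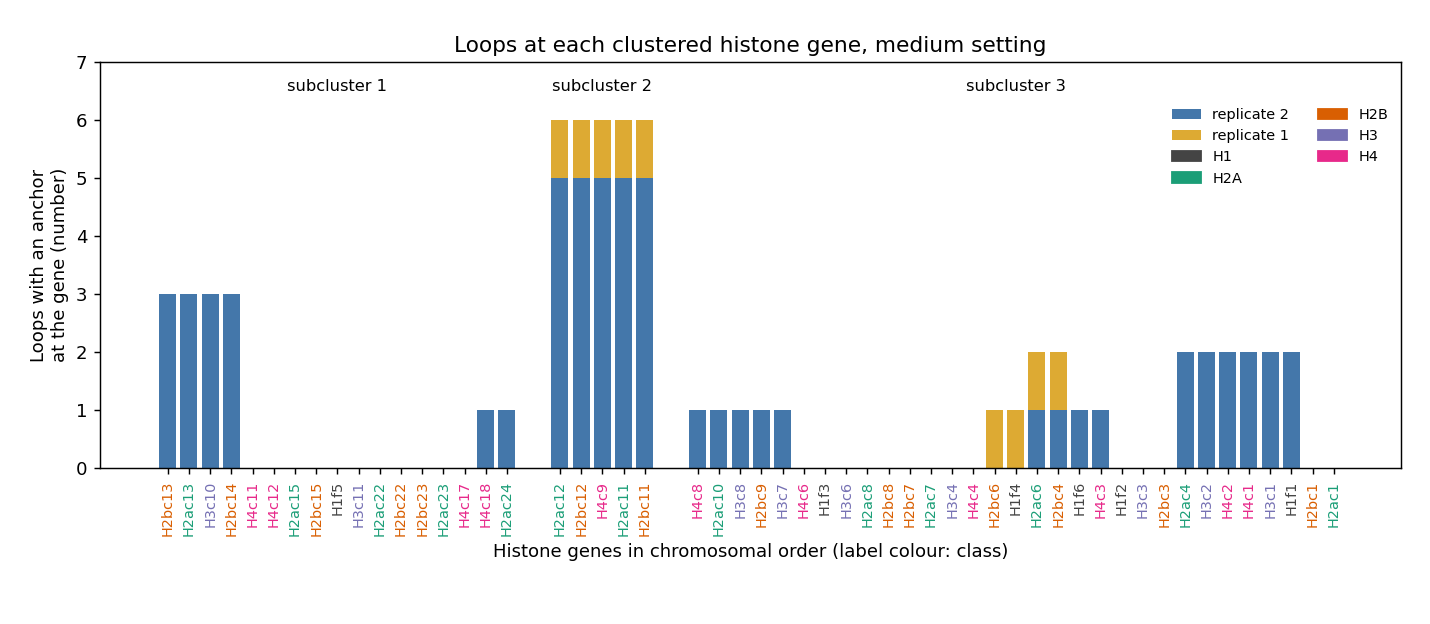
Number of medium-setting loops with an anchor at each of the 53 histone genes in chromosomal order, replicate 2 in blue with replicate 1 stacked above in yellow, and gene names coloured by class. The 5 genes of subcluster 2 reach 6 loops each, the first 4 of subcluster 1 have 3, and 25 genes have 0.

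A part of subcluster 1 consists of near-identical copies. In 300-base promoters (250 bases before the start and 50 after), H2bc23 and the gene with the symbol H4bc24 had the same base at 300 of 300 positions, H4c17 and H4c18 at 298 of 299, and H4c11 and H4c12 at 274 of 286. H4bc24 lies in the cluster, and the annotation gives it the older symbol Hist1h2br, that of an H2B gene. Its current symbol begins with none of the prefixes used, so it was not counted as a member. With it the count at anchors was 29. Exactly 1 loop, the 200 kb loop from H4c18 and H2ac24 to subcluster 2, had an anchor in the stretch from H2bc23 to H4bc24 (21806412 to 21837530). How reads that fit both copies were placed is not given in the sources used here. Without that loop 26 histone genes were at an anchor.

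How many of the 4 replicate 1 loops of the window were found again depended on the matching rule. When both anchors had to overlap, it was 1. A partner with both midpoints within 20 kb was present in replicate 2 for 3 of 4, against 80.6% of all replicate 1 loops, and in replicate 1 for 3 of 18 replicate 2 loops, against 18.2% of all. The pair with identical anchors joined 21850001 to 21874999, with 2 tRNA genes, to 21950001 to 21974999, with an end of the zinc finger gene Zfp184, over 100 kb. Its n was 46 in replicate 1 and 132 in replicate 2, a ratio of 2.87, and the median ratio over the 163 pairs on identical 25 kb anchors was also 2.87 (quartiles 2.53 and 3.16). The second was a loop between tRNA bins, of 90 kb (n = 26) from 23430001 to 23439999 in replicate 1 and of 85 kb (n = 33) from 23430001 to 23434999 in replicate 2. Their right anchors, 23520001 to 23529999 and 23515001 to 23519999, did not overlap. The third was the short loop at H2ac6 and H2bc4. The long hub loop of replicate 1 had no partner by the 20 kb rule. Its right bin was adjacent to that of the 1500 kb replicate 2 loop, 25 kb away. A limit of 20 kb always parts adjacent 25 kb bins and never adjacent 10 kb bins, such as the left bins of the third loop. The hub loop had a partner only when 40 kb was allowed.

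Genes for transfer RNAs lay at many of the same anchors. Of 79 tRNA genes in the window 39 were at an anchor of either list (49.4%), against 28.5% of 403 in the annotation. Of the 26 distinct anchors in the window, 8 held histone gene ends, and 4 of these held tRNA genes as well. A further 13 held tRNA genes without a histone gene. The subcluster 2 bin itself held 3 tRNA genes, and 2 narrower anchors that overlap it, each with a replicate 2 loop of 80 or 55 kb, held tRNA genes but no histone gene end. Both anchors held a tRNA gene for 11 of the 18 loops in replicate 2 and for 3 of the 4 in replicate 1. Over the whole lists this held for 15 of 5729 and 3 of 1276 loops, so 4 and 0 lay outside the window, which holds 79 of the 403 tRNA genes. Like the histone genes, these were counted in a region chosen for its loops, and tRNA genes within an anchor are not independent of each other.

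Of the 61 other protein-coding genes of the window 5 were at an anchor (22.5% of all protein-coding genes were). The 36 Vmn1r genes were all without one, and the remaining 25 genes, with 5 at an anchor, had a share of 20%, near that of all genes. Without H4bc24, an H2B gene by its older symbol, there were 4 of 24. The 5 were Olfr1359, H4bc24, Zfp184, Prss16, a serine protease gene of the thymus, and Trim38, which encodes a regulator of innate immune signalling. None of the 4 Slc17a transporter genes was. Trim38 lay in the bin at 23775001 to 23799999, directly right of the H1f1 bin, with replicate 2 loops of 325 kb (n = 43) and 500 kb (n = 61). The longer of these reached an end of Carmil1, an actin regulator gene, and neither had a histone gene at an anchor. The longest stretch of the window without an anchor ran from 22050000 to 23425000, over 39 protein-coding genes, 36 of them Vmn1r genes, and 16 tRNA genes.

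No domain was listed over the histone genes. Replicate 1 had 3 domains, 0 of them on chromosome 13. Replicate 2 had 339, with 22 on chromosome 13 and 0 that overlapped the window. The nearest on the left ended at 20290000, 1210 kb before the window, and the nearest on the right began at 30550001, 6550 kb beyond it. The share of all protein-coding genes that lie in a domain is not given here. The absence is therefore not read as particular to the histone genes.

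The promoter motifs were counted by histone class. Of the 53 genes 50 had an entry in the RefSeq promoter table, with 51 promoters, and H3c7, H2bc4 and H3c1 did not. The CCAAT box was in all 6 H1, all 13 H2A, all 14 H2B and all 7 H3 promoters but in 3 of 11 H4 promoters, against 37.4% of 32851 promoters of the same 300 bases. The H4 element core was in 10 of 11 H4 promoters (8.25% of all promoters), H4c1 being the exception. In 6 of the 10 its first base lay 46 or 47 bases before the start. The AC box was in 5 of 6 H1 promoters (7.18% of all promoters), 112 to 122 bases before the start, and the promoter of H1f1 did not hold it. The octamer was in 6 of 14 H2B and 5 of 13 H2A promoters and in 0 of the other 24 (1.74% of all promoters). H2A and H2B promoters of a divergent pair overlap, so a match can be counted for both. The TATA box was in 31 of 51 (13.6% of all promoters), but often far from the start or on the other strand. Read in the gene's direction and 20 to 40 bases before the start, it was in 10 of 51 (1.99% of all promoters). These were 4 of 6 H1, 3 of 13 H2A, 2 of 7 H3, 1 of 11 H4 and 0 of 14 H2B promoters. A motif match describes letters only and does not show that a factor binds.

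**Figure D3:**
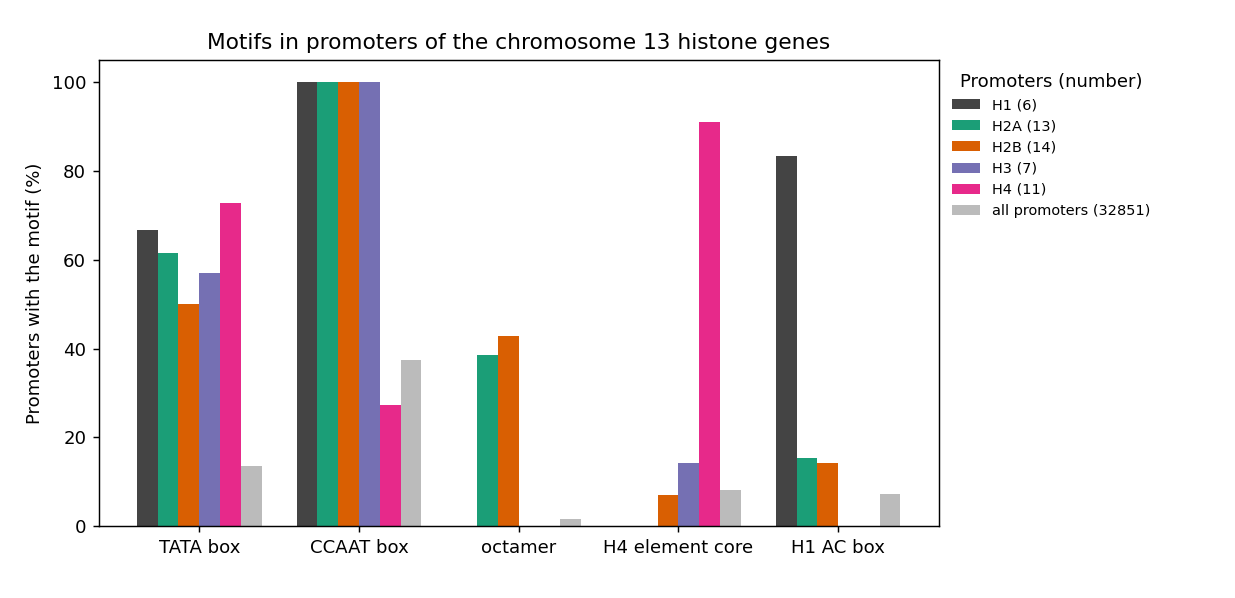
Share of promoters (300 bases, in percent) with each of 5 motifs on either strand, by histone class, with all 32851 RefSeq promoters in grey. The H4 element core peaks in H4 (90.9%), the AC box in H1 (83.3%), and the octamer appears in H2A and H2B alone among the classes (38.5 and 42.9%).

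Histone promoters at anchors and away from them held these motifs in the following numbers. The CCAAT box was in 22 of 26 promoters of genes at an anchor and in 21 of 25 others. The octamer was in 6 and 5, the H4 element core in 6 and 6, and the AC box in 4 and 5. The TATA box, at any position, was in 11 of 26 and 20 of 25, and this difference was not tested, since neighbouring genes share anchors. Read in the gene's direction and 20 to 40 bases before the start, it was in H3c10, H1f4, H2ac6, H3c2 and H1f1 at anchors. Away from anchors it was in H1f5, H1f3, H2ac22, H4c4 and H2ac1, so the difference was not seen near the start. Among the 9 divergent H2A and H2B pairs with entries for both genes, with 163 to 280 bases between the starts, both genes were at an anchor in 3 (H2bc13 and H2ac13 besides the pairs of subcluster 2), and neither was in 6. Starts this close nearly always fall in the same bin, so pairs with a single gene at an anchor were unlikely from the outset. The pairs of subcluster 2 lay in the hub bin, which the choice of the region used.

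As whole lists, histone genes elsewhere and genes that serve histone RNA production had smaller shares at anchors than the members. The members' region was chosen for its loops, so the shares are given as a description. Of 47 protein-coding histone genes outside the window 2 had an end at an anchor (4.26%), namely H2aw and H3f4, which share a replicate 2 loop of 250 kb in the small histone cluster of chromosome 11. That cluster holds 3 genes, so its share was 66.7%. None of the 10 genes of the chromosome 3 cluster had an end at an anchor. The 47 also include many genes of the X chromosome, such as the H2al1 genes, and none of those was at an anchor. Of 25 genes that act in histone gene transcription or histone RNA processing 5 were at an anchor, close to the 22.5% of all protein-coding genes. Pou2f1, whose protein binds the octamer, had 2 loops of 100 kb in replicate 1. The others had loops in replicate 2 alone. Eri1, a nuclease gene of histone RNA 3′ ends, had 4 loops of 90 to 1750 kb, Cpsf2, a cleavage factor gene, had 3 of 150 to 475 kb, and Lin54 and the cyclin gene Ccne2 had 1 each, of 100 and 300 kb. Npat, Slbp, Casp8ap2 and Hinfp had 0.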

How the data were processed

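Hi-C was run on 2 samples of the HPC5 line. HiC-Pro 2.11.1 and mm10 are listed in the submitters' processing notes. The loop caller and domain caller were not given in the sources used here. Per the file headers and values, each loop entry deposited by the authors is a pair of anchors with the values n and qBL, which are undefined there (unit: other). Each list belongs to 1 replicate, with a medium and a high setting and 1 domain list. The lists give no depth, so no interval or floor could be stated. Genes, tRNA genes and promoters came from RefSeq tables of GRCm38.p6 (mm10), without 345 genes on scaffolds. Domain starts were moved by 1 base to count from 1.

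An anchor was assigned every gene with its left or right end inside. Loops were matched within 20 kb at both midpoints. Motifs were searched on both strands of 300 bases. Python 3.11.15 and networkx 3.6.1 were used, and the counting was tested on simulated data.

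The region, members and lists were chosen with earlier results of these data known. Therefore no test was run and no p-value is given. Genes were named when they were members at an anchor, lay at the other end of a member's loop, or belonged to the listed groups. The region's non-histone families were added to these.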

Additional observations from a re-analysis of the deposited data

How the results depend on the processing

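Results were recounted under other settings, of which those for H4bc24, the near-identical copies and the 10 kb margin between subclusters were chosen after seeing the data. Under the high setting the histone genes at an anchor numbered 6 in place of 28, the loops in the window 8 in place of 22, those at a histone gene 3 in place of 12, and those between subclusters 0 in place of 4. Leaving out a replicate gave 9 to 26 genes, 4 to 18 loops in the window, 2 to 10 at histone genes and 0 to 4 between subclusters, the low value in each case being that without replicate 2. Shared loops alone left 4 genes. When anchors had to overlap, 1 of 4 replicate 1 loops was found in place of 3, and a gap of 500 kb left 2 loops between subclusters. The other alternatives stayed within 1.5 times of the main count, and no domain overlapped the window under any. No paired analysis was possible because there is 1 group. All long hub loops lie on 25 kb anchors, which the high lists do not hold in this window, and depth is unknown.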
